A study of Mus musculus with 12 samples.

Results

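The genes described here are the mouse potassium channel family, taken as every gene whose symbol in the platform annotation begins with Kcn. The array held 119 probes for 80 such genes, of 25697 probes and 16593 named genes in all. Where a gene had several probes, the brightest on average over the 12 arrays stood for it. Kcnk1 led the family among genes with higher values in aged than in young hearts, and the family was chosen for that contrast, so the Kcnk1 values below are a description with no test. The other 79 genes entered by symbol, not by their own values, although the family was taken up with earlier results of these data known.

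Transcripts were measured in heart tissue of C57Bl/6 mice on Illumina bead arrays, with 4 arrays in each of 3 groups. The first group was aged mice of 30 to 32 months given 3 mM spermidine, a natural polyamine, in the drinking water from 4 months of age. The second group was untreated aged mice of the same age, and the third was untreated young mice of 6 months. All groups shared the strain and standard chow, and the labels used here state neither the sex of the mice nor the part of the heart taken. Beyond a number in each title, nothing says that the arrays of a group are separate animals, so a p-value here reflects the spread among samples, which may be in part technical. In bulk tissue, fewer cells of a type and less RNA per cell cannot be told apart.

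Potassium channels carry potassium ions out of the heart muscle cell and so end the action potential and set the resting potential. Tandem-pore channels (Kcnk) pass a background current, inward rectifiers (Kcnj) hold the resting potential and include channels gated by ATP or by acetylcholine, and voltage-gated channels (Kcna to Kcnd, Kcnh, Kcnq and others) open on depolarization. Calcium-activated channels (Kcnma, Kcnn) respond to calcium inside the cell. Accessory subunits (Kcne, Kcnip, Kcnab, Kcnmb) form no pore and change the gating or the surface level of the pore subunits.

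Values are log2 of the quantile-normalized intensity plus 16, and a difference is the first group minus the second on that scale, and for dim probes it understates the change. A probe counted as above background on an array when its intensity exceeded 3 SDs of that array's negative values mirrored about 0, a limit of 13.2 to 15.8 intensity units. The arrays averaged 259 to 313 intensity units, and 45.5% to 48.0% of all probes were above the limit on an array. Arrays of a group correlated at r = 0.984 to 0.988 in spermidine-treated aged hearts, 0.969 to 0.987 in aged hearts and 0.980 to 0.995 in young hearts across 10311 bright probes. Markers of airway summed to 3653 intensity units on spermidine-treated aged replicate 3 and to 11321 on young replicate 4, against at most 32 on every other array. Aged replicate 1 had the lowest sum of 8 atrial markers, 12547 intensity units, against 49071 to 60703 on the other 11 arrays. The 5 ventricular markers were above the limit on all 12 arrays and summed to 47983 to 50033 units in spermidine-treated aged, 46363 to 49914 units for aged and 44209 to 51792 units for young hearts.

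Of the 80 genes, 13 were above the limit on all 12 arrays, 14 more on 4 to 11 arrays, 11 on 1 to 3 arrays, and 42 on none. By role, 4 of 13 tandem-pore genes, 5 of 12 inward rectifiers, 10 of 32 voltage-gated pore genes, 1 of 7 calcium- or sodium-activated genes and 7 of 16 accessory genes were above it on 4 or more arrays. The 13 above the limit on every array were Kcnk3, Kcnk6, Kcnj2, Kcnj3, Kcnj8, Kcnj12, Kcna5, Kcna7, Kcnh2, Kcnq1, Kcnv2, Kcnn1 and Kcnip2. Among the 42 on no array were the cardiac genes Kcnj5, a subunit of the acetylcholine-gated channel, Kcnd3, a pore subunit of the transient outward current, and Kcna4, which carries its slow component. The 11 genes above it on 1 to 3 arrays were Kcnk2, Kcnk13, Kcnj6, Kcnj15, Kcna2, Kcna10, Kcns1, Kcnn4, Kcnu1, Kcne1l and Kcnmb1. A filter that kept a probe only if it exceeded the array's 25th percentile on 4 or more arrays left 67 of the 80 genes, and 13 dim genes were not tested.

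Kcnk1 encodes a tandem-pore background channel. It was measured by 1 probe and lies on chromosome 8. As deposited, before quantile normalization, its intensity was 119, 43, 125 and 162 units in the 4 spermidine-treated aged hearts, 166, 152, 134 and 96 units in the 4 aged hearts, and 2, 8, 4 and 16 units in the 4 young hearts. All 8 arrays of old mice were above the background limit, and 1 of 4 young arrays was. On the log2 scale the values were 7.08, 5.98, 7.04 and 7.64 in spermidine-treated aged hearts, 7.50, 7.41, 7.30 and 6.78 in aged hearts, and 4.17, 4.56, 4.32 and 4.99 in young hearts. The lowest old heart, spermidine-treated aged replicate 2, still lay above the highest young heart, so neither old group overlapped with the young one. Mean values (± SD, n = 4 each) were 6.94 ± 0.69 in spermidine-treated aged hearts, 7.24 ± 0.32 in aged hearts and 4.51 ± 0.36 in young hearts.

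The Kcnk1 difference of aged from young hearts was 2.73, or 6.64-fold on the intensity plus 16 scale. That of spermidine-treated aged from young hearts was 2.42, or 5.37-fold. These folds moved with the constant added before log2, because the young values are near background: aged over young was 3.26-fold with 50 added and 13.6-fold with 4 added, and spermidine-treated aged over young was 2.78-fold and 10.6-fold. The difference of spermidine-treated aged from aged hearts was -0.31, with overlapping groups, and it was 0.01 without spermidine-treated aged replicate 2. Without the 2 arrays that hold airway transcripts the Kcnk1 folds over young hearts were 7.42 in aged hearts and 5.86 in spermidine-treated aged hearts.

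**Figure D1:**
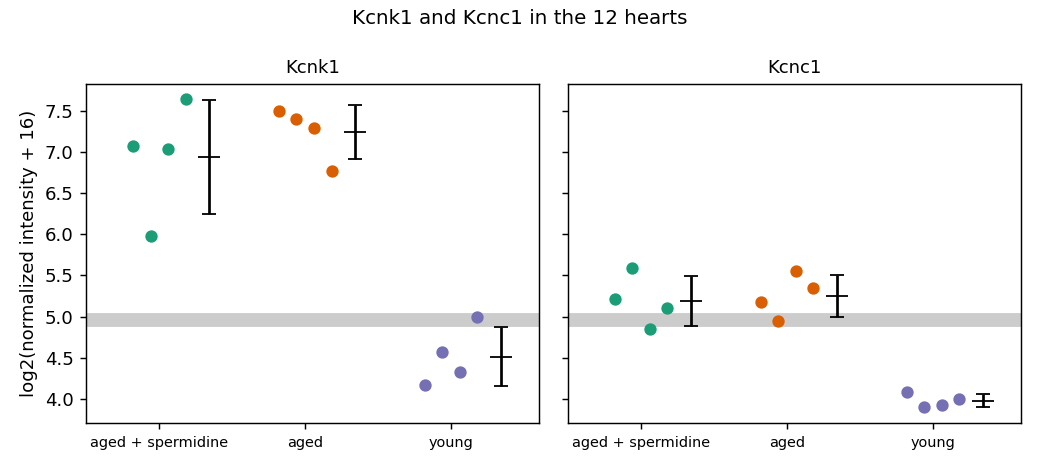
Kcnk1 and Kcnc1 in each of the 12 hearts, as log2 of normalized intensity plus 16. Points are arrays, the black bar is the group mean ± SD (n = 4), and the grey band is the range over arrays of the lowest log2 value among probes above the background limit. Kcnk1 lay between 5.98 and 7.64 in the 8 old hearts, against 4.17 to 4.99 in the 4 young hearts, and Kcnc1 in the young hearts lay between 3.90 and 4.09.

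Promoter windows are shown for Kcnk1 and Kcnc1, since these are the members with the clearest difference between old and young hearts. The windows come from RefSeq on GRCm38.p6 and run from 250 bases before to 50 bases after a start site in its promoter table, which held 84 windows for 62 of the 80 genes. For both genes that start lies inside the annotated gene, so each window overlaps the gene and is not the sequence before its first base. The Kcnk1 window is chr8:125994852-125995151 on the plus strand, and capitals mark the 2 runs of a repeated 2-base unit, 9 copies of GC and 8 copies of CT, which lie after that start site. The Kcnc1 window is chr7:46396218-46396517 on the plus strand, and capitals mark the 3 matches to GGGCGG on either strand.
Kcnk1: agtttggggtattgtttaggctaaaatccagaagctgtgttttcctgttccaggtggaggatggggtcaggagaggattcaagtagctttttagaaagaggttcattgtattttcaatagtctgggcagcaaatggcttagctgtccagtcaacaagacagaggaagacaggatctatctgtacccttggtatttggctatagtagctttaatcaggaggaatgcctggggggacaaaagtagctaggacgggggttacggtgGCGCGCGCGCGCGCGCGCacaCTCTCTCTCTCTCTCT
Kcnc1: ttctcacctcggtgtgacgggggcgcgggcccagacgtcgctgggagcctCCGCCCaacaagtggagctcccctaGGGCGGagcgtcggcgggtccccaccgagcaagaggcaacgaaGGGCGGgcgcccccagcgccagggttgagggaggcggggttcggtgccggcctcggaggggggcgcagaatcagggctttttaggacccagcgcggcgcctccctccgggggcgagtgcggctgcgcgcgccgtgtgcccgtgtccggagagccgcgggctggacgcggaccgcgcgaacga

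The windows of Kcnk1 and Kcnc1 differed in base composition. The Kcnk1 window had 49% G or C and 10 CpG, whereas the Kcnc1 window had 74.67% G or C and 41 CpG. Of all 32851 RefSeq windows, each 300 bases long, 35.65% had a lower G or C share than that of Kcnk1 and 95.83% a lower one than that of Kcnc1. The GC box GGGCGG occurred in 50% of the Kcn windows and 35.66% of all windows, and was absent from that of Kcnk1. Both windows lacked the motif CCAAT on either strand, which occurred in 26.19% of the Kcn windows and 37.41% of all windows. They also lacked the TATA box motif TATAAA, found in 4.762% of the Kcn windows and 13.62% of all windows. The E-box motif CACGTG, likewise absent from both, occurred in 8.333% of the Kcn windows and 7.15% of all windows. A run of at least 6 copies of a 2-base unit occurred in 5.952% of the Kcn windows and 2.1% of all windows. A match is a description of letters and not a binding site, and its part in the values was not tested.

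The 5 named probes whose pattern over the 12 arrays was most like that of Kcnk1, among 19288 compared, were Cds1 (Pearson r = 0.956), Amy1 (0.952), Tlr7 (0.942), Acsm5 (0.934) and Serpina1d (0.932). Cds1 makes a phospholipid precursor and Tlr7 is an endosomal receptor for RNA. These correlations are descriptions over 12 arrays that share the age groups. Cds1 averaged 8.71 ± 0.14 in spermidine-treated aged hearts, 8.77 ± 0.13 in aged hearts and 7.31 ± 0.25 in young hearts. Tlr7 averaged 6.07 ± 0.17 in spermidine-treated aged hearts, against 6.03 ± 0.11 in aged hearts and 5.16 ± 0.06 in young hearts (all SD, n = 4). The mean of both old groups was above that of young hearts in all 5 probes, which follows from picking them by likeness to Kcnk1.

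The remaining tandem-pore genes showed smaller differences, and none passed the test. Kcnk3, an acid-sensitive background channel of heart muscle, was 10.09, 10.09, 9.86 and 10.13 in spermidine-treated aged hearts, 9.71, 9.68, 9.75 and 9.83 in aged hearts, and 9.84, 10.39, 9.94 and 10.02 in young hearts. All 4 aged hearts were below every heart of the other groups. The differences were -0.30 in aged against young hearts (limma, adjusted p = 0.303) and 0.30 in spermidine-treated aged against aged hearts (adjusted p = 0.504), so neither passed. The 2 comparisons share the aged arrays.

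Kcnk6, another tandem-pore channel, averaged 7.11, 7.25 and 7.03 in spermidine-treated aged, aged and young hearts, with groups that overlapped. Its second probe above the limit on all 12 arrays averaged 5.35, 5.45 and 5.55, so the 2 disagreed in direction for aged against young hearts. Kcnk13, a tandem-pore channel, was above the limit on 3 of 4 spermidine-treated aged arrays and on no other array. Its values were 4.91, 4.90, 5.34 and 5.20 in spermidine-treated aged hearts, 4.59, 4.78, 4.82 and 4.85 in aged hearts, and 4.77, 4.45, 4.44 and 4.85 in young hearts. Set against the lowest signal above the limit, the ratio of treated hearts was at least 1.10-fold over aged and at least 1.13-fold over young hearts. These bounds leave out the spread among samples, and by limma the adjusted p was 0.504 against aged and 0.369 against young hearts. Neither difference passed the threshold, although the treated group did not overlap with either of the others. Kcnk5 and Kcnk2, a pair of background channels, were above the limit on 5 and 2 arrays, and their differences lay between -0.10 and 0.00 in the 3 comparisons. Kcnk4 was above it on no array and is given no fold.

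Kcnc1, the pore subunit of a fast voltage-gated channel best known from rapidly firing neurons, was the only tested member that passed the threshold, and it rose in both old groups against young hearts. Values were 5.22, 5.58, 4.85 and 5.11 in spermidine-treated aged hearts, 5.17, 4.95, 5.55 and 5.35 in aged hearts, and 4.09, 3.90, 3.93 and 4.00 in young hearts. Neither old group overlapped with the young hearts, and the old groups overlapped with each other. Kcnc1 was above the background limit on 3 of 4 spermidine-treated aged arrays, all 4 aged arrays and none of the young arrays, so its levels are near the limit. As deposited, its intensity in the young hearts was 1, -1, -1 and 0 units, and the probe was kept through the old arrays where it is brighter. Of 6 nerve and glia markers with a probe, Uchl1 and Dbh were above the limit on all 12 arrays and Tubb3, Chat, Th and S100b on none. They summed to 153 to 175 units in spermidine-treated aged, 116 to 180 units for aged and 121 to 176 units for young hearts.

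Kcnc1 averaged 5.19 ± 0.31 in spermidine-treated aged hearts, against 5.25 ± 0.26 in aged and 3.98 ± 0.08 in young hearts (SD with n = 4 throughout). The difference of aged from young hearts was 1.27 (SE 0.16, limma, adjusted p = 0.0030), and that of spermidine-treated aged from young hearts was 1.21 (SE 0.16, adjusted p = 0.0067). Set against the lowest signal above the limit on the young arrays, the ratios were at least 1.27-fold in aged and at least 1.22-fold in spermidine-treated aged hearts. With no filter on dim probes both calls stood (adjusted p = 0.00525 in aged and 0.0115 in treated hearts against young). The size moved with the constant added before log2: aged minus young was 0.54 with 50 added and 2.80 with 4 added, and spermidine-treated aged minus young was 0.51 and 2.71. These comparisons share the young arrays. The difference of spermidine-treated aged from aged hearts was -0.06 (adjusted p = 0.927). Kcnc1 has a second probe, which was above the limit on no array and whose groups overlapped, with values of 3.74 to 4.17 in spermidine-treated aged, 3.78 to 4.09 for aged and 3.56 to 4.32 for young hearts. The probes of this gene thus disagreed, the one that rose being the brighter.

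Kcnc4, a related fast channel, was 5.38, 5.25, 5.72 and 5.64 in spermidine-treated aged hearts, 4.83, 5.15, 5.07 and 5.12 in aged hearts, and 4.88, 5.06, 4.72 and 5.19 in young hearts. All 4 treated hearts were above every aged and every young heart. The differences were 0.46 against aged hearts (SE 0.14, limma, unadjusted p = 0.0069, adjusted p = 0.457) and 0.53 against young hearts (adjusted p = 0.263), and neither passed.

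Kcna7, a voltage-gated channel of skeletal and heart muscle, was 5.77, 5.52, 5.50 and 5.70 in spermidine-treated aged, 5.52, 5.23, 5.58 and 5.88 in aged, and 5.15, 5.28, 5.22 and 5.04 in young hearts. Treated hearts did not overlap with young hearts, and the aged hearts did. Its differences were 0.45 in spermidine-treated aged against young hearts (adjusted p = 0.371) and 0.38 in aged against young hearts (adjusted p = 0.218). Kcna5, a voltage-gated channel of heart muscle, was 5.34 to 6.42 in spermidine-treated aged and 5.45 to 5.80 in aged hearts. In young hearts it was 5.22, 5.28, 5.11 and 6.06, the last on replicate 4, which holds airway transcripts. Every other young heart was below every treated heart. Kcnv2, a silent subunit that modifies other voltage-gated channels, was 7.20 to 7.73 in spermidine-treated aged, 6.87 to 7.61 in aged and 6.48 to 7.41 for young hearts. Groups overlapped in both genes, and the differences of treated from young hearts, 0.66 for Kcna5 (adjusted p = 0.531) and 0.65 for Kcnv2 (adjusted p = 0.398), did not pass. Kcna3, a channel of leukocytes, and Kcnh1, of the ether-a-go-go group, had differences between -0.27 and 0.28 in the 3 comparisons.

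The pore subunits of the main repolarizing currents differed little. Kcnh2, of the rapid delayed rectifier, averaged 9.49, 9.30 and 9.47 in spermidine-treated aged, aged and young hearts, and its second probe above the limit on every array averaged 8.28, 8.15 and 8.26. Kcnq1, of the slow delayed rectifier, averaged 7.61 in spermidine-treated aged, 7.41 in aged and 7.57 in young hearts. Kcnd2, a pore subunit of the transient outward current, averaged 5.41 in spermidine-treated aged, 5.58 in aged and 5.59 in young hearts, with aged hearts spread from 4.83 to 6.31. None of these passed in any comparison.

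The inward rectifiers also showed no difference past the threshold. Kcnj2 and Kcnj12, subunits of the classical inward rectifier, averaged 5.96 and 6.32 in spermidine-treated aged hearts, 6.16 and 6.08 in aged hearts, and 6.09 and 6.24 in young hearts. Kcnj3, of the acetylcholine-gated channel, averaged 6.52, 6.49 and 6.43 in spermidine-treated aged, aged and young hearts. Kcnj8, an ATP-sensitive channel pore typical of vascular muscle and pericytes, was 7.49, 7.53, 7.38 and 7.34 in spermidine-treated aged, 7.95, 7.71, 7.74 and 7.34 in aged, and 7.75, 7.62, 7.79 and 7.54 in young hearts. Treated hearts were all below the young hearts, with a difference of -0.24 (adjusted p = 0.783) that did not pass. The gap was very narrow, with the highest treated heart at 7.534 and the lowest young heart at 7.535. Beside it, markers of smooth muscle and pericytes summed to 8876 to 10597 intensity units in spermidine-treated aged hearts, 10768 to 13128 in aged hearts and 9162 to 12866 in young hearts, with 8 of 9 above the limit on 4 or more arrays. By gene, 5 of the 9 were higher and 4 lower in treated against aged hearts, with a median difference of 0.02. Against young hearts 1 was higher and 8 lower in treated hearts, with a median of -0.11. The part of smooth muscle and pericytes in the Kcnj8 values was not tested. Kcnj4, of the same inward rectifier group, was above the limit on 5 arrays and its differences lay between -0.19 and 0.22.

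Kcnn1, a small-conductance calcium-activated channel and the only gene of its class above the limit on 4 or more arrays, averaged 6.78, 6.69 and 6.55 in spermidine-treated aged, aged and young hearts. The groups overlapped and no difference passed. Kcnn4, the intermediate-conductance channel known from red and immune cells, was above the limit on 1 array.

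Among accessory subunits, Kcne1 showed the largest differences of mean. It encodes the partner of Kcnq1 in the slow delayed rectifier. Its values were 6.61, 6.42, 6.38 and 6.42 in spermidine-treated aged hearts, 4.88, 7.39, 6.93 and 5.07 in aged hearts, and 8.23, 7.83, 7.65 and 7.60 in young hearts. Both old groups were below every young heart, and the aged hearts fell into 2 low and 2 high ones. The group means were 6.45 ± 0.11 for spermidine-treated aged, 6.07 ± 1.28 for aged and 7.83 ± 0.29 for young hearts (± SD of 4 arrays).

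The Kcne1 differences did not pass: -1.76 in aged against young (SE 0.45, limma, adjusted p = 0.0944), -1.38 in spermidine-treated aged against young (SE 0.45, adjusted p = 0.419), and 0.39 in treated against aged hearts (adjusted p = 0.81). Aged against young passed without aged replicate 2, at -2.20 (adjusted p = 0.0310), and it was -1.37 without aged replicate 1 (adjusted p = 0.172). The difference of treated from aged hearts was -0.0065 without aged replicate 1. The other 3 probes of Kcne1 were above the limit on 3, 1 and 0 arrays. In the probe above it on 3 arrays, all of them young, the difference of aged from young was -0.37 (adjusted p = 0.263). Beside Kcne1, aged replicate 1 was low in atrial genes: Sln, a calcium pump regulator, was 9.75 there and 12.79 to 13.46 on the other arrays, and Myl7, the atrial myosin light chain, was 8.77 there and 11.74 to 12.77 elsewhere. Aged replicate 4 was also low in Kcne1, at 5.07, while its Sln was 12.99 and its Myl7 11.93. Of 8 atrial markers 7 were above the limit on 4 or more arrays, Upk3a was on none, and 0 passed the threshold. In aged against young hearts 2 of the 8 had an unadjusted p below 0.05, against 14.3% of all probes. By gene, 7 of the 8 were lower and 1 higher in aged against young hearts, with a median difference of -0.57. In treated against aged hearts 7 were higher and 1 lower, with a median of 0.48. Against young hearts 3 were higher and 5 lower in treated hearts, with a median of -0.08. The part of atrial tissue in the Kcne1 values was not tested.

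**Figure D2:**
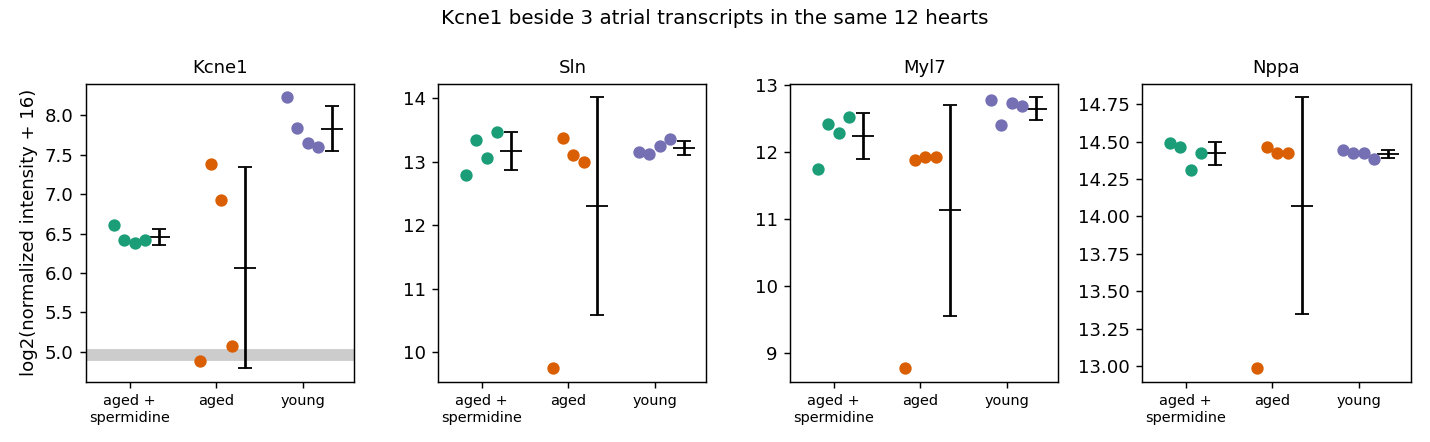
Kcne1 beside the atrial transcripts Sln, Myl7 and Nppa on the same 12 arrays, as log2 of normalized intensity plus 16 with points for arrays and bars for mean ± SD (n = 4). Each panel has its own vertical scale. The aged hearts spread from 4.88 to 7.39 in Kcne1, and 1 aged heart is low in all 3 atrial transcripts.

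Kcnip2, which binds the transient outward channel, averaged 7.39, 7.65 and 7.77 in spermidine-treated aged, aged and young hearts, with overlapping groups. Kcnab1, a beta subunit of voltage-gated channels, was 5.10 to 5.65 in treated, 4.71 to 5.55 for aged and 5.23 to 5.80 for young hearts. Another Kcnab1 probe was above the limit on all 12 arrays, against 11 for the probe shown. Its difference of aged from young hearts was 0.12, against -0.37 in the probe shown. In treated against aged hearts it was -0.23, against 0.19, so these probes disagreed in direction. In treated against young hearts both were lower, at -0.11 and -0.18. The remaining probe, above the limit on 4 arrays, had 0.04, 0.08 and 0.12 in the same order. No Kcnab1 difference passed. Kcne1l, another gene of the Kcne group, was above the limit on 3 arrays and its difference of -0.45 in treated against aged hearts did not pass (adjusted p = 0.502). Kcnab2, Kcne4, Kcnip3 and Kcnmb4 had differences between -0.30 and 0.28 in the 3 comparisons.

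**Figure D3:**
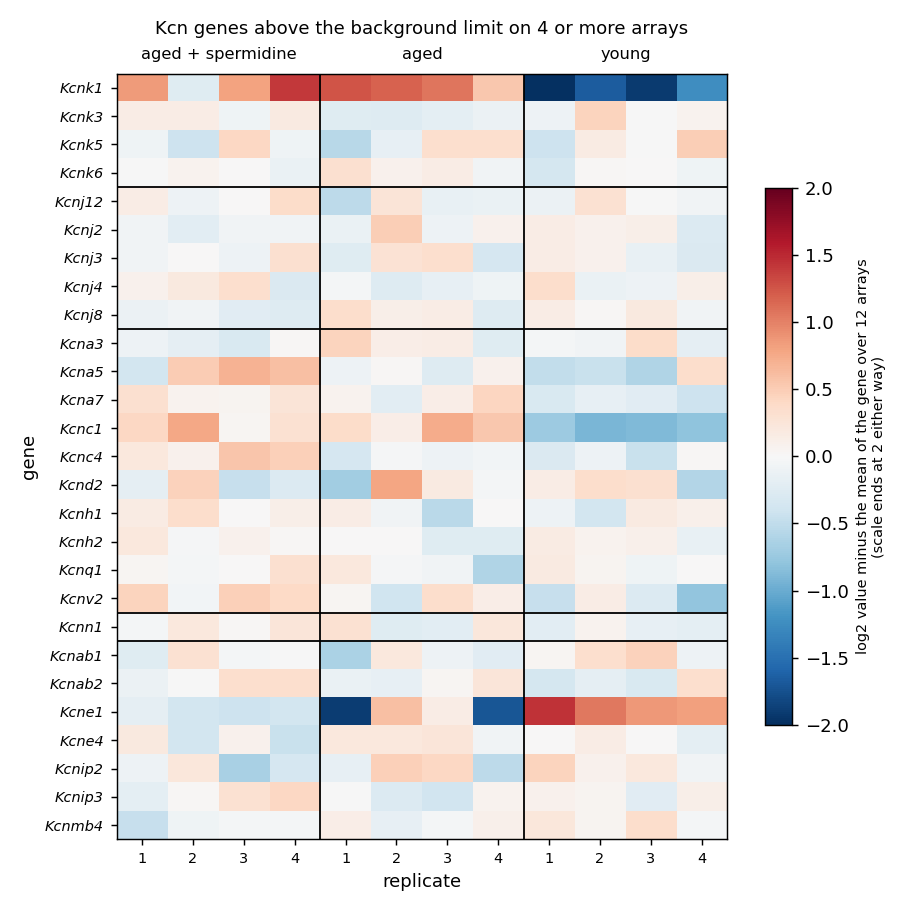
The 27 Kcn genes above the background limit on 4 or more arrays, grouped by role from tandem-pore genes at the top to accessory subunits at the bottom, with the log2 value minus the mean of the gene over 12 arrays. Red is above and blue below that mean, and the scale ends at 2 either way. Kcnk1 is blue in the young hearts and red in the old ones, except spermidine-treated aged replicate 2. Kcne1 is red in young hearts and darkest blue in aged replicates 1 and 4.

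Over the whole family, few genes passed the threshold. In aged against young hearts 1 of 66 tested members besides Kcnk1 passed, Kcnc1, against 0.797% of all 20573 tested probes. The median difference was 0.04 in the family and -0.011 in all probes. The groups did not overlap in 4 of these 66 members, Kcnc1, Kcne1, Kcnk3 and Kcnk4, 6.06% against 8.07% of all probes. An unadjusted p below 0.05 was seen in 6 members, 9.09% against 14.3%. Of the 66 members, 26 were above the limit on 4 or more arrays. Among these, 11.5% did not overlap, against 10.8% of 12659 probes that bright. By limma, 15.4% of them had an unadjusted p below 0.05, against 17.8%.

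In spermidine-treated aged against aged hearts 0 of 66 members passed, against 0.00486% of all probes by limma, and 5 had an unadjusted p below 0.05, 7.58% against 9.45%. Kcnc4, Kcnk3, Kcnk13 and Kcnip1, the last above the limit on no array, did not overlap between the groups, 6.06% against 3.27% of all probes. The median difference was -0.04, against 0.0047 in all probes. Among the 26 members above the limit on 4 or more arrays, 7.69% did not overlap, against 3.77% of probes that bright. An unadjusted p below 0.05 was seen in 7.69% of them, against 10.8%. In spermidine-treated aged against young hearts 1 member passed, Kcnc1, against 0.16% of all probes, and 11 had an unadjusted p below 0.05, 16.7% against 7.49%. The groups did not overlap in 7 members, 10.6% against 5.51% of all probes, with 4 higher and 3 lower in treated hearts. They were Kcna7, Kcnc1, Kcnc4, Kcne1, Kcnf1, Kcnj8 and Kcnk13, and Kcnj8 was parted only by 7.534 against 7.535. The median difference was -0.0077, against -0.012 in all probes. Among the same 26 members, 5 did not overlap, 19.2% against 7.28% of probes that bright. In 7 of the 26 the unadjusted p was below 0.05, 26.9% against 7.86%. Whether the shares of members and of all probes differ was not tested. Comparisons that share a group share its arrays, and no count of genes across them is given.

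**Figure D4:**
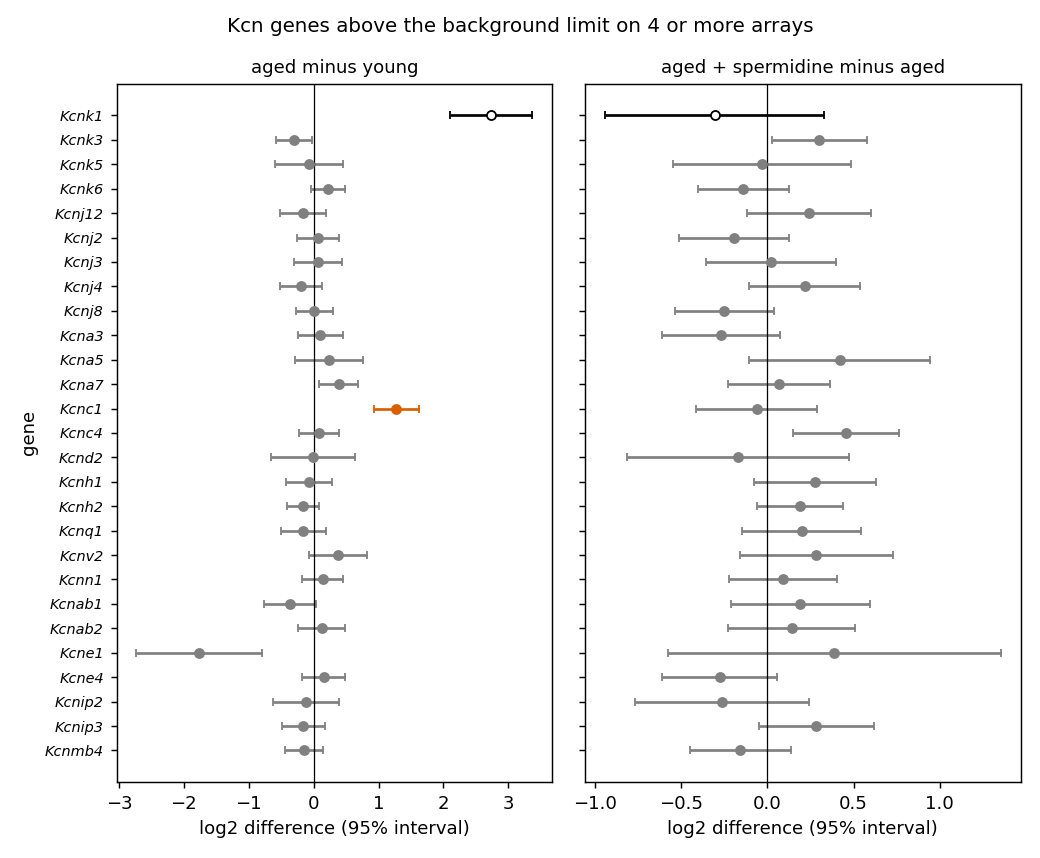
Differences of the 27 Kcn genes above the limit on 4 or more arrays, with 95% intervals from the limma fit, for aged minus young on the left and spermidine-treated aged minus aged on the right. Orange marks an adjusted p below 0.05, and the open black circle is Kcnk1, described with no test. The horizontal scales differ. Kcnc1, at 1.27, is the only orange point.

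The other genes of potassium handling were counted on fixed lists. Of the 18 tested accessory and partner genes outside the Kcn names, 1 passed in aged against young hearts, against 0.797% of all probes. It was Tmem38b, which rose, a channel of the sarcoplasmic reticulum that carries the potassium counter current of calcium release. Tmem38b was 9.16 to 9.29 in spermidine-treated aged, 9.34 to 9.65 for aged and 8.65 to 8.77 for young hearts, a difference of aged from young of 0.82 (SE 0.10, adjusted p = 0.0027), while that of treated from young was 0.51 (adjusted p = 0.0861) and treated from aged was -0.30 (adjusted p = 0.46). The list's median difference was -0.02 in aged against young, 0.04 in treated against aged and -0.0034 in treated against young hearts. In these comparisons 3, 1 and 2 of its genes had an unadjusted p below 0.05, against 14.3%, 9.45% and 7.49% of all probes. Of the 10 sodium-potassium pump and cotransport genes tested, 0 passed by limma, with 2, 0 and 2 at an unadjusted p below 0.05, against 14.3%, 9.45% and 7.49% of all probes, and medians of -0.06, 0.04 and -0.02 in the same comparisons. Of the 15 transcription factors of the conduction system and chambers 0 passed, with 4, 0 and 3 at an unadjusted p below 0.05, against the same 14.3%, 9.45% and 7.49% of all probes, and medians of 0.03, -0.14 and -0.22. The 18 other cardiac channels and gap junction genes had medians of -0.18, 0.05 and -0.16. Of them 4, 0 and 3 had an unadjusted p below 0.05, against the same shares of all probes. In aged and in treated against young hearts 1 passed, against 0.797% and 0.16% of all probes. The gene was Scn4b, which rose, a beta subunit of the cardiac sodium channel. It was 9.63 to 9.91 in spermidine-treated aged, 8.74 to 10.12 for aged and 8.03 to 8.38 for young hearts. The differences were 1.31 in aged against young (SE 0.25, adjusted p = 0.0298) and 1.53 in treated against young (SE 0.25, adjusted p = 0.0215). The first call was lost without aged replicate 1 or any 1 young replicate (adjusted p up to 0.110). The second was lost without treated replicate 3 or 4 or young replicate 1, 2 or 3 (adjusted p up to 0.108). Both were also lost with 4 added before log2, without the 2 arrays that hold airway transcripts, and without these and aged replicate 1, and the first with only its 2 groups in the fit, so that 9 and 8 of 23 alternatives ended them (adjusted p up to 0.142 and 0.160).

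Markers of other cells stood beside these values. Of 8 macrophage markers 6 had a probe, all above the limit on 12 arrays, with summed intensity of 2069 to 3044 units in spermidine-treated aged, 2401 to 3205 units for aged and 1771 to 1930 units for young hearts, and all 6 genes had higher means in both old groups than in young. C1qc, a complement subunit of macrophages, rose by 0.72 in aged against young hearts (adjusted p = 0.0421), a call lost without any 1 young replicate, aged replicate 1, 2 or 3, or treated replicate 1 or 4. Summed over 3 red cell markers, intensity was 26051 to 30567 units for spermidine-treated aged, 23213 to 28743 units for aged and 19826 to 24185 units for young hearts. Of 8 skeletal muscle markers 7 had a probe and 3 were above the limit on 4 or more arrays. The 7 summed to 7785 to 8985 units in spermidine-treated aged, 7379 to 8069 units for aged and 8263 to 9298 units for young hearts. The sum, to which bright genes add most, was lower in aged than in young hearts with no overlap. By gene, 3 of the 5 tested were higher and 2 lower in aged against young hearts, with a median difference of 0.07. The part of these cells in the Kcnk1 and Kcnc1 values was not tested.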

How the data were processed

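Transcripts were measured in 12 heart samples, 4 per group, on Illumina bead arrays. The deposited tables of 25697 probes give linear intensity in whole numbers per the file headers, and the one used is called non-normalized by the authors. Of its values 24.1% were below 0, so a background had been subtracted by a step that no header or label used here names, and no detection p, slide or scan order was used. From it, limma 3.58.1 in R 4.3.3 did quantile normalization, and log2 of the intensity plus 16 was taken. A probe was kept (20573 were) if it exceeded the array's 25th percentile on 4 or more of the 12 arrays. One limma model of 3 group means over all arrays gave moderated tests with 9 residual degrees of freedom, two-sided, adjusted by Benjamini-Hochberg over all kept probes, with 0.05 as the threshold.

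Where a group had no array above the limit, a ratio is a bound against the lowest signal above the limit. Symbols came from the platform annotation, updated through RefSeq. A single symbol was given for 23978 probes, several for 0 and none for 1719. The authors' normalized table of intensity, with a median of 21 on every array, was an alternative, and its columns matched those of the non-normalized table. How it was scaled no source used here says. The members and lists were chosen with earlier results of these data known. Named genes were Kcnk1, members past the threshold, the 3 members with the smallest p each way, a fixed cardiac panel, and the 5 probes most like Kcnk1. Of the panel, 27 genes were analysed here, 25 were kept and 18 were above the limit on 4 or more arrays. The replicate numbers of the titles do not pair samples: deviations from the group means correlated at -0.177 to 0.107 between same-numbered arrays.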

Additional observations from a re-analysis of the deposited data

Results flagged for a closer look

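Among 66 groups of 4 arrays tested for 22 genes, 5 (7.58%) held 1 array whose gap to the nearest other exceeded Dixon's 95% critical share of the range. Chance flags about 1 in 20 groups. Kcne1 was 6.61 in spermidine-treated aged replicate 1, against 6.38 to 6.42 in the other 3. Kcnj2 was 5.85 in spermidine-treated aged replicate 2, against 5.99 to 6.00 in the others, and 5.80 in young replicate 4, against 6.15 to 6.22. Kcnk3 was 9.86 in spermidine-treated aged replicate 3, against 10.09 to 10.13. Kcnn1 was 6.75 in young replicate 2, against 6.46 to 6.51. Spermidine-treated aged replicate 3 and young replicate 4 are the arrays with airway transcripts, whose part in these values was not tested.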

How the results depend on the processing

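The count of Kcn genes past the threshold in spermidine-treated aged against aged hearts was 0 under all 24 alternatives. In aged against young it was 1, and 2 with the authors' normalized values or with 50 added before log2, where Kcne1 joined Kcnc1. Leaving out each array in turn gave 1 to 2. The count was 2 without spermidine-treated aged replicate 4, where Kcnk4 was added, and without aged replicate 2, where Kcne1 was. In treated against young it was 1, and 2 with only those groups in the fit. Causes of these changes were not tested. With the replicate number as a block, the replicate block counts were 1, 0 and 1 in aged against young, treated against aged and treated against young hearts, and Kcnc1 passed in both comparisons with young. Kcnc1 passed in all 23 alternatives of each, with adjusted p of 0.00154 to 0.0209 in aged and 0.00284 to 0.0371 in treated hearts against young, and a difference of 0.54 to 2.80 in aged and 0.51 to 2.71 in treated hearts.

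Of 1656 values under alternatives, 67 counts stayed within 1.5 times and 5 moved. Of the values of single genes 1546 were labelled the same, 4 moved, 4 came to pass and 30 no longer passed. For genes named by their p, the same meant an unchanged sign and side of the threshold, and 0 of these reversed. For Kcnk1 and the other panel genes it meant a shift below 1 SD within groups. The sign of small differences could change there, as for Kcnd2 in aged against young hearts, at -0.25 to 0.24. Scn4b lost its call in 9 of 23 alternatives in aged against young and 8 of 23 in treated against young hearts, with adjusted p up to 0.142 and 0.160. Beside single arrays left out, these were 4 added before log2, both exclusions of arrays of unlike make-up and, in aged against young, only those groups in the fit. C1qc lost its call in 13 of 23 alternatives, with adjusted p up to 0.136. Levels near the background limit bound the precision of Kcnc1 and of Kcnk1 in young hearts.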
